A study of Homo sapiens with 6 samples.

Results

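Neighbouring genes of the human genome often begin or end so close together that a single stretch of open chromatin serves as an end of both, and such stretches are described here in the nuclei of Jurkat, a human leukaemia line of T-cell origin that is widely kept in culture. Overlapping peaks (by 1 bp or more) of 6 ATAC-seq libraries were joined, which gave 69562 union regions. A region was a member if it was under 2000 bp wide, was overlapped by a peak of all 6 libraries, and had its centre within 1000 bp of an end of at least 2 different RefSeq protein-coding genes. This left 1436 members, 2.06% of the union and 5.99% of the 23984 regions under 2000 bp that all 6 libraries held (called constant regions here). Members were chosen by the presence of a peak in every library and by the region's width, so neither is a finding. The members lay at 2863 genes, with 2 genes at 1376 members, 3 genes at 60 and 4 or more at none.

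ATAC-seq uses a transposase that inserts sequencing adapters into accessible DNA, so a peak marks a stretch of open chromatin. Each of the 6 libraries was made from nuclei of 50000 cells after a 3 min lysis, with transposition for 30 min at 37 °C. Libraries NG 1 to NG 3 were held in normal gravity. For SMG 1 to SMG 3 (simulated microgravity), isolated nuclei rather than living cells were turned by a random positioning machine at 30 degrees per second for 30 min, so the comparison concerns nuclei. The labels name no separate cultures for the libraries of a group, so p-values here measure library-to-library spread alone, and that may be technical. The 6 libraries held 37782 to 43713 peaks, of which 3.43 to 4.02% lay in members. Their depth, expressed as the lowest background pileup recovered from the peak values, was lowest in NG 1 (1.17 fragments per base) and highest in NG 2 (1.77). Peak names of SMG 3 carry a word (normalized) that the other lists lack, and no source used here explains it. All 8 T-cell marker genes (CD3D, CD3E, CD3G, CD2, CD7, LCK, ZAP70 and CD247) had a peak at an end in all 6 libraries, while none of the 3 B-cell, 3 myeloid, 2 erythroid and 2 epithelial markers had one in any library.

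Genes that start back to back on opposite strands are said to lie head to head, and the DNA between them is called a bidirectional promoter. Such promoters are known in mammals for their high content of CpG dinucleotides, for the rarity of TATA boxes, and for serving genes of DNA repair, chromatin and mitochondrial function that most cells express. Other arrangements put the start of a gene beside the far end of its neighbour (head to tail) or bring both far ends together (tail to tail). The far end of a gene is where its transcript is cleaved.

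The DNA between the starts is shown for 10 head-to-head members, because this is the stretch that both genes share. They were taken from members with starts 60 to 250 bp apart, whose annotated starts both equalled those of the RefSeq promoter table, with 1 chromosome left out. Among these they are the 6 with the highest accessibility rank, the 2 with the lowest, and the textbook pairs HARS1/HARS2 and TK1/AFMID. Stronger members outside these limits, such as SETDB2-PHF11/SETDB2/CAB39L, are not shown. The sequences come from the RefSeq promoter table (GRCh38.p14), run from the start of the minus-strand gene to that of the plus-strand gene, and are written 5′ to 3′ on the plus strand. Capitals mark matches, on either strand, to the short motifs listed further on.
FBXO24/LRCH4: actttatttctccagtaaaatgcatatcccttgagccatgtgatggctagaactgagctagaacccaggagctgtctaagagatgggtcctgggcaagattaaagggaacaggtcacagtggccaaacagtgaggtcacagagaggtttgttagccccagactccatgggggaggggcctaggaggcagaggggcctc
TMEM53/ARMH1: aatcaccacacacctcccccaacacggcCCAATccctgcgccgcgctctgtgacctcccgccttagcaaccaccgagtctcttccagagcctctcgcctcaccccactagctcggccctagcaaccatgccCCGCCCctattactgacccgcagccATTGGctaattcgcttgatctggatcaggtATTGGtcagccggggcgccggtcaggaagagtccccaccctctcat
ORMDL1/PMS1: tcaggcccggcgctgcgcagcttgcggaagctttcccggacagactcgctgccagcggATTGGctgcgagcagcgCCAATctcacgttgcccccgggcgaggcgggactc
PPIP5K2/GIN1: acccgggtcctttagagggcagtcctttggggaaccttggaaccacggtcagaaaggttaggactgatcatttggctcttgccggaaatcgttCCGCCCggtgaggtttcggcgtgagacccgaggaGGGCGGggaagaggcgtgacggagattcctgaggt
JRKL/CCDC82: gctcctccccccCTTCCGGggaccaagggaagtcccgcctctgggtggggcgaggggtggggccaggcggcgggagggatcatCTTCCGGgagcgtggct
CEP57/FAM76B: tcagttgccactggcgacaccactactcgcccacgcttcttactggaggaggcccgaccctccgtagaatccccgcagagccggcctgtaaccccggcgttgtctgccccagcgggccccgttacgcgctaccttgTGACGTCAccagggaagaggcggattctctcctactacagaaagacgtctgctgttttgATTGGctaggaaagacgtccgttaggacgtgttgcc
HARS1/HARS2: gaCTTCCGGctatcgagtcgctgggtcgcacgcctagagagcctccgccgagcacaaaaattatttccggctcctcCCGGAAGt
TK1/AFMID: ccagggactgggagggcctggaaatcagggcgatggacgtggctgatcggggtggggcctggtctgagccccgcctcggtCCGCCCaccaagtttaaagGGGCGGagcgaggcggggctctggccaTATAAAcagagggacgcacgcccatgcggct
MTA3/KCNG3: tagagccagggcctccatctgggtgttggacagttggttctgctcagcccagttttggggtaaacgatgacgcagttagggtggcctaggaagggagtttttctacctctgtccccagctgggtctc
NUP62CL/DNAAF6: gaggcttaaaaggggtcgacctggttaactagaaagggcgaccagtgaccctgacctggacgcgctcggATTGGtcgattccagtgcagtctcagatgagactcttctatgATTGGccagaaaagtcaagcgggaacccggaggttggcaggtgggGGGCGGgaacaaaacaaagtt

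The shared stretch of ORMDL1 and PMS1, a mismatch repair gene, is chr2:189784340-189784449 (110 bp) and held 13 CpG and 2 matches to CCAAT. That of HARS1 and HARS2, the cytosolic and mitochondrial histidyl-tRNA synthetases, is chr5:140691371-140691454 (84 bp) and held a match to CCGGAAG near each start. The stretch of TK1, thymidine kinase, and AFMID is chr17:78187205-78187361 (157 bp), and it held 2 GC boxes and the letters TATAAA. The sequence of FBXO24/LRCH4 (chr7:100586130-100586327, 198 bp) held 0 CpG and no motif match, although its mean rank percentile was 99.3. MTA3/KCNG3 (chr2:42493983-42494109) also held no match, had 2 CpG, and stood at a mean rank percentile of 15.3. Sequences without a match thus occurred at both ends of the ranking.

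Because a peak list holds no read counts and the deposited scores move with depth, accessibility was compared as a rank percentile. Each of the 23984 constant regions was ranked within its library by the −log10 q-value of its best peak, with 100 as the strongest. The median member stood at 73.0, 75.4 and 75.2 in NG 1 to NG 3 and at 71.1, 72.7 and 74.5 in SMG 1 to SMG 3. The median summit pileup of members was 32 to 53 fragments and their median fold over local background 7.87 to 8.91. Of the members, 313 (21.8%) had a mean rank over 90, against 8.61% of all constant regions, and 18 (1.25%) had a mean rank under 10, against 3.78%. Constant regions at an end of 1 gene (n = 6333) had medians of 64.2 to 67.2, and regions at no gene end (n = 16215) 41.7 to 43.2. Members exceeded regions with 1 gene by 8.09 percentile points on average and were higher in 6 of 6 libraries. The exact sign-flip test over libraries, two-sided, gave p = 0.031, the smallest it allows with 6 libraries, and an adjusted p of 0.0625 over the 6 planned tests (0.05 over all 8 tests). The best peak of a member was also wider, by 83.7 bp on average and in 6 of 6 libraries, with the same exact p = 0.031 and adjusted values. Both sets meet the same limits on width and presence, so the difference lies within what those limits leave.

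Median rank differed with the arrangement of the genes, which the choice of members did not use. Gene starts lay head to head at 847 members (59.0%), which had median ranks of 76.3 to 79.8 in the 6 libraries. Head-to-tail members (n = 192, 13.4%) had medians of 59.0 to 66.7. The 53 members where starts on the same strand meet, 37 of them with 1 shared start position and 21 with a readthrough gene, had medians of 61.5 to 73.3. Tail-to-tail members were few (n = 16) and weak, with medians of 17.1 to 32.6, and 1 further member had far ends on the same strand. For 327 members (22.8%) at least 1 gene had no strand in the tables used here, so any head-to-head starts among them are not in the 847. These 327 members had medians of 65.8 to 73.9. The arrangements overlapped in strength. A mean rank over 90 was held by 24.9% of head-to-head, 22.6% of same-strand-start and 21.1% of unassigned members. It was held by 10.9% of head-to-tail and 0% of tail-to-tail members. Head-to-head members exceeded the other members by 11.9 points, higher in 6 of 6 libraries (exact sign-flip test, two-sided, p = 0.031, the smallest possible, adjusted p = 0.0625 over the 6 planned tests).

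**Figure D1:**
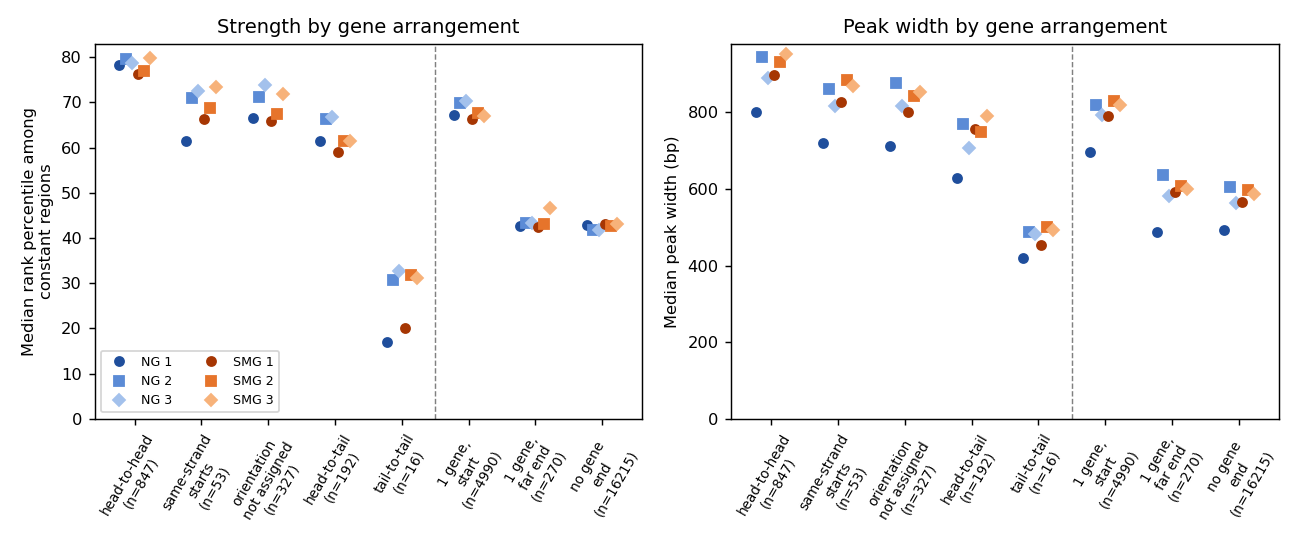
Median rank percentile (left) and median peak width in bp (right) of constant regions by arrangement of the gene ends, 1 point per library (NG, normal gravity; SMG, simulated microgravity), with members left of the dashed line and other constant regions right of it. Head-to-head members lie between 76.3 and 79.8 and tail-to-tail members between 17.1 and 32.6.

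Head-to-head members were also set against constant regions at the start of 1 gene, a comparison added after the values were seen. The 4990 such regions had median ranks of 66.4 to 70.2 and median peak widths of 696 to 829 bp, against widths of 802 to 952 bp at head-to-head members. The differences were 10.2 percentile points and 112 bp, both higher at head-to-head members in 6 of 6 libraries (exact sign-flip test, two-sided, p = 0.031 for each, the smallest possible, adjusted p = 0.05 over 8 tests). Of the head-to-head members 24.9% had a mean rank over 90, against 15.6% of the regions with 1 start. Across the 847 head-to-head members rank and region width went together with a Spearman correlation of 0.32, given as a description because the same reads set both.

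At the top of the head-to-head members stood PHTF2/TMEM60 (hg38 chr7:77797937-77799331), with rank percentiles of 99.7, 99.8 and 99.8 in normal gravity and 99.8, 99.8 and 99.4 in simulated microgravity. Its summit pileups were 131, 207 and 174 fragments in NG 1 to NG 3 and 192, 223 and 143 in SMG 1 to SMG 3. The pileups thus ranged widely while the ranks barely moved. Next came the region of SETDB2, a histone methyltransferase, with its readthrough gene SETDB2-PHF11 and CAB39L (chr13:49443645-49444920), and then KBTBD3/AASDHPPT (chr11:106076786-106078165), the latter gene encoding a phosphopantetheinyl transferase. HACL1, an enzyme of peroxisomal fatty acid oxidation, shared chr3:15601201-15602350 with BTD, the biotinidase gene. RCHY1/THAP6, with a ubiquitin ligase and a THAP-domain gene, and PDCD10/SERPINI1, with a gene of cerebral cavernous malformation and neuroserpin, completed the 6. The lowest rank of these 6 in any library was 99.0.

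Strong members with orientation not assigned included NUDCD1/ENY2, with a subunit of the SAGA and TREX-2 complexes, which ranked 99.7, 99.9 and 99.8 in normal gravity and 99.9 in each of the 3 libraries of simulated microgravity. SRGAP2C/FAM72B, CNGA4/FHIP1B (chr11:6234176-6235392) and CDCA2/KCTD9 were also among the strongest. The region of CNGA4/FHIP1B ranked 99.6, 99.8 and 99.7 in NG and 99.7, 99.8 and 99.3 in SMG libraries. SRGAP2C and FAM72B belong to duplicated gene families with near-identical copies, so the placement of reads there is uncertain.

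The strongest head-to-tail member was CYCS/SPMIP4 (chr7:25124824-25125949), at cytochrome c, with ranks of 99.1, 97.4 and 99.4 in normal gravity and 98.4, 98.2 and 96.0 in simulated microgravity. ZNF446/ZNF324, INO80B/WBP1 (INO80B is a subunit of a chromatin remodeller), LOC139427322/TOR1AIP1, HYAL3/NAA80/HYAL1 and SELENOH/TMX2 came next, and the lowest rank of these 5 in any library was 91.9. Arrangement was read from the end of each gene nearest the centre of the region. At LOC139427322/TOR1AIP1 this put a far end beside a start, although the genes also start 31 bp apart on the same strand. In head-to-tail members the summit, averaged over libraries, lay nearer the start than the far end in 167 of 192 (87.0%). The median distance was 104 bp to the start and 460 bp to the far end. The summit thus followed the start, not the far end, in most of them.

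Of the 16 tail-to-tail members the highest was HABP4/CDC14B (chr9:96491409-96492048), with ranks of 81.6, 57.9 and 67.0 in NG and 84.0, 86.5 and 76.3 in SMG libraries. The groups overlapped. DCP2/MCC, at the gene of an mRNA decapping enzyme, ranked 50.1 to 72.8 over the 6 libraries. CPAMD8/F2RL3 ranked 78.0, 49.5 and 66.4 in NG and 40.6, 48.4 and 16.1 in SMG libraries, so every SMG value lay below every NG value there. OAZ1/PEAK3 (OAZ1 encodes ornithine decarboxylase antizyme), STX18/NSG1 and PRR7/DBN1 were the others among the highest 6, and their ranks ranged from 18 to 68.5.

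The weakest member of all was IDH3B/NOP56 (chr20:2658415-2659230), at genes of the citric acid cycle and of small nucleolar ribonucleoproteins. It ranked 7.4, 2.8 and 0.7 in NG and 1.8, 1.4 and 5.9 in SMG libraries, on summit pileups of 14 to 19 fragments. C4orf36/AFF1, CDC42EP5/LENG9 and TRIM11/TRIM17 were the next weakest, with mean ranks of 4.29, 5.53 and 5.89. A peak in every library is thus compatible with a place near the bottom of the ranking.

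Members just inside the width limit were RMI1/HNRNPK (1940 bp) and KDM1B/TPMT (1933 bp), and CRYZ/TYW3 (2007 bp) was just outside it. The width limit removed 23 constant regions at ends of 2 or more genes. For the distance of the second gene end from the centre, DSTN/BFSP1 (999 bp) and SLC26A6/CELSR3 (998 bp) were just inside, and SOAT2/IGFBP6 and TEDC1/CRIP1 (1001 bp each) just outside.

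The distance between starts at head-to-head members had a median of 132 bp (quartiles 25.5 and 243.5 bp) and ranged from -1497 to 1328 bp, where a negative value means that the genes overlap. The genes overlapped at 199 members, and at 503 (59.4%) the starts lay 0 to under 300 bp apart. Median ranks were 68.2 to 71.1 over the 6 libraries for starts under 100 bp apart without overlap (n = 147), within or near the range of regions with 1 start. They were 77.2 to 81.1 from 100 to under 200 bp (n = 212), 82.8 to 85.6 from 200 to under 300 bp (n = 144), 85.1 to 88.7 from 300 to under 500 bp (n = 96) and 81.9 to 90.3 from 500 to under 1000 bp (n = 45). Overlapping genes (n = 199) had medians of 70.9 to 76.9, and the 4 members with 1000 bp or more between starts had 52.2 to 59.7. The 3 groups from 100 to under 500 bp stood above the group under 100 bp in every library, a pattern seen after the values were known and not tested.

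The summit of a head-to-head member lay on either side of the midpoint of the starts. The mean summit differed from the midpoint of the starts by a median of -5.17 bp (quartiles -82.4 and 64.2 bp), with no lean towards the plus-strand or minus-strand gene visible at that scale. Per library the median distance from the midpoint was 95 to 105.5 bp, and 56.1 to 60.1% of best summits fell between the starts. This share was 21.6 to 26.6% at the 199 members with overlapping genes, where the median distance from the midpoint was 251 to 262.5 bp. It was 33.3 to 45.6% for starts under 100 bp apart and 88.9 to 95.6% for starts 500 to under 1000 bp apart (the interval itself is wider). At 159 members (18.8%) at least 1 library split the region into 2 or more peaks, and at 0 members did all 6 libraries do so. The summit of a head-to-head member moved between libraries with a median SD of 66.9 bp, which limits how closely a summit can be read.

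**Figure D2:**
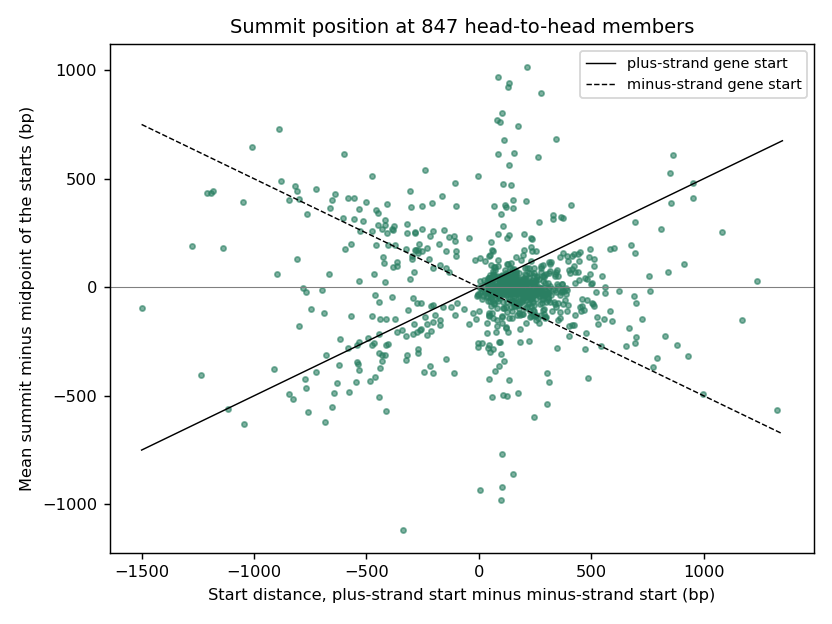
Mean summit position relative to the midpoint of the 2 gene starts (bp) against the distance between the starts (bp, negative where genes overlap) for the 847 head-to-head members, 1 point per member. Lines give the positions of the starts, and the points gather around 0 with a median of -5.17 bp.

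Starting from the annotation instead of the peaks showed which neighbouring genes lacked a shared open region. Of 1097 head-to-head pairs with starts within 1000 bp, 855 (77.9%) had both starts at a member, 73 had a peak in 1 to 5 libraries and 141 (12.9%) had no peak in any library. The remaining 28 lay at constant regions that were not members. Of 475 head-to-tail pairs on the same strand 179 (37.7%) lay at a member and 223 (46.9%) had no peak. Pairs with a start beside a far end on opposite strands, counted as head to tail among members, numbered 92. Of these, 44 (47.8%) lay at a member and 38 (41.3%) had no peak in any library. Tail-to-tail pairs nearly always lacked a peak, with 6 of 638 (0.94%) at a member and 614 (96.2%) without a peak in any library. The share of head-to-head pairs at a member was 69.6% for overlapping genes, 72.9% under 100 bp, 82.4% from 100 to under 200 bp, 88.9% from 200 to under 300 bp, 81.7% from 300 to under 500 bp and 77.0% from 500 to 1000 bp. These shares come from the annotation and 6 libraries of 1 cell line, and were not tested.

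**Figure D3:**
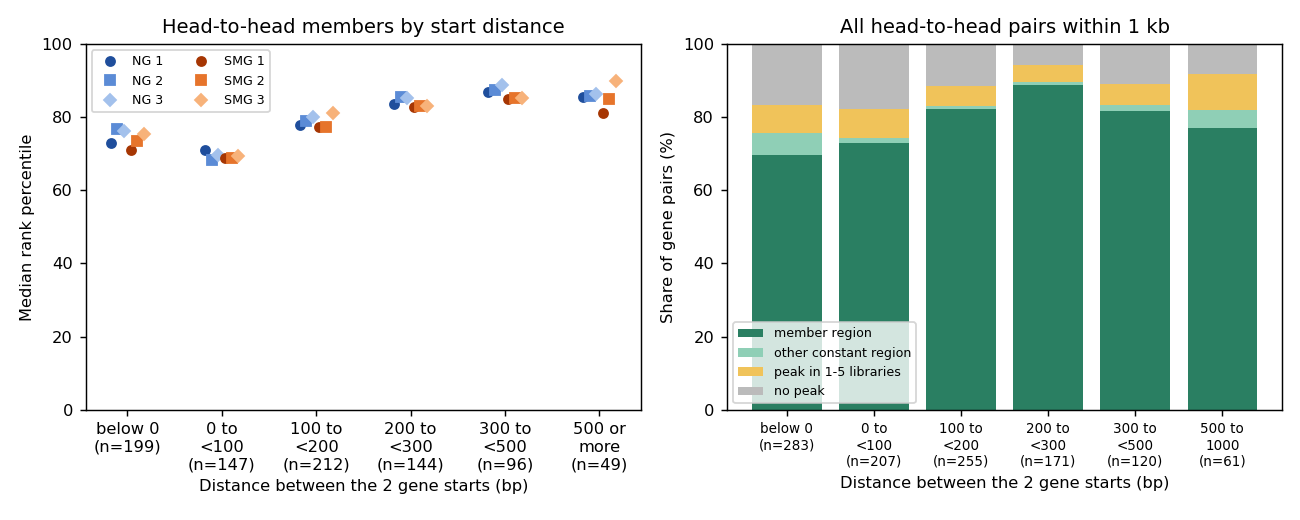
Left, median rank percentile of head-to-head members by distance between starts (bp), 1 point per library; right, share (%) of all annotated head-to-head pairs within 1000 bp whose starts lay at a member, at another constant region, at a peak of 1 to 5 libraries or at no peak. Starts under 100 bp apart have medians of 68.2 to 71.1, and the member share is highest from 200 to under 300 bp (88.9%).

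Textbook bidirectional pairs illustrate the span. The list was chosen for its arrangement, and 23 of its 38 matched genes lay at members. NPAT, a coactivator of histone gene transcription, and ATM, the DNA damage kinase, start 429 bp apart at chr11:108222228-108223474, and their region ranked 97.0, 99.5 and 99.3 in NG and 99.0, 98.6 and 97.9 in SMG libraries. HSPD1 and HSPE1, which encode the mitochondrial chaperonin and its co-chaperonin, start 105 bp apart, and their region (chr2:197499242-197500739) ranked 98.0, 99.0 and 98.5 in NG and 98.8, 98.5 and 97.0 in SMG libraries. GART, a purine synthesis enzyme, and SON, a splicing cofactor, ranked 89.1 to 94.3 over the 6 libraries, and HARS1/HARS2 ranked 79.1 to 85.3. At TK1/AFMID the ranks were 9.6, 35.3 and 24.1 in NG and 7.0, 6.4 and 12.4 in SMG libraries, on summit pileups of 10 to 23 fragments.

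The type IV collagen genes of basement membranes form 3 head-to-head pairs with different outcomes. COL4A3/COL4A4 (chr2:227163949-227165340, starts 136 bp apart) was a member with ranks of 35.6, 22.4 and 45.1 in NG and 31.2, 37.3 and 22.6 in SMG libraries. Its mean summit lay 563 bp from the midpoint of the starts, on the COL4A3 side and outside the stretch between them. COL4A1/COL4A2 (127 bp apart) and COL4A5/COL4A6 (380 bp apart) had no peak at their starts in any library. TAP1/PSMB9 (488 bp apart), antigen-processing genes, had peaks in 1 to 5 libraries and is therefore no member. SIRT3/PSMD13, a mitochondrial deacetylase and a proteasome subunit, ranked 33.7, 55.4 and 79.1 in NG and 38.1, 64.3 and 89.1 in SMG libraries, a spread within each group far larger than the difference between their means.

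Genes were also read by function from gene lists, against a share of 14.3% of all 20033 protein-coding genes at members. That share also counts genes with no constant region at an end, since 8886 of the 20033 had one. Shares of open genes are given further on. DNA repair genes lay at members in 33 of 79 cases (41.8%), 26 of them head to head, and their member regions had a median mean rank of 84.6, against 72.7 over all members. Besides PMS1 and ATM these included FANCB, of the Fanconi anaemia pathway, whose region with MOSPD2 averaged 95.2, and XRCC4, of DNA end joining, whose region with TMEM167A averaged 94.6. PRKDC, a DNA end-joining kinase, and MCM4, a subunit of the replicative helicase, met at a region averaging 95.3 and at a second, narrower region beside it that ranked 33.4 to 91.3. DNA replication genes lay at members in 18 of 48 cases (37.5%), among them the origin recognition genes ORC3 (with RARS2, mean 98.2) and ORC6 (with VPS35, mean 96.3). The lists describe how often such genes lie at members, and no test of a list was made.

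Histone genes lay at members in 28 of 63 cases (44.4%), in 14 regions with a median mean rank of 64.7. H2BC11/H2AC11 (starts 248 bp apart) and H2BC4/H2AC6 (246 bp apart), pairs of core histone genes, averaged 93.0 and 91.5. Histone genes are near-identical copies of each other, so reads that map to several of them may have been lost or misplaced, and their values are uncertain. Members held 28 of 77 genes of the mitochondrial ribosome (36.4%), in regions with a median mean rank of 65.2, below that of all members. Its strongest regions included HELQ/MRPS18C, averaging 96.8, and MRPL18/TCP1, averaging 95. They held 30 of 75 oxidative phosphorylation genes (40%), also with a median mean rank of 65.2, and the strongest regions were NDUFA11/VMAC, averaging 99.0, and GABPA/ATP5PF, which joins an ETS-family factor to an ATP synthase subunit, 95.3. Chaperone and mitochondrial import genes stood at 18 of 44 (40.9%, median mean rank 83.4), with TIMM21/FBXO15 averaging 95.2.

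Lower shares were those of cytosolic ribosome genes (20 of 76, 26.3%), aminoacyl-tRNA synthetases (11 of 37, 29.7%), nucleotide synthesis genes (9 of 35, 25.7%) and proteasome genes (11 of 43, 25.6%). Their member regions had median mean ranks of 68.2, 81.2, 59.6 and 76.4 in the same order. Among the strongest TRAPPC4/RPS25 averaged 92.5 and RNF31/PSME2 94.6. T-cell genes were at the other end, with 3 of 46 (6.52%) at members and 0 of them head to head, although 26 of the 46 had a constant region at an end. The 3 were LAT, an adaptor of T-cell receptor signalling, beside SPNS1 (mean rank 57.7), CD27, a co-stimulatory receptor, beside TAPBPL (54.9), and STAT3 beside STAT5A (26.8). Of the genes open at an end in all 6 libraries, 11.5% of the T-cell list lay at members, against 44.6% of the DNA repair list and 32.2% of all genes. On the same base the share was 29.9% for the cytosolic ribosome, 33.3% for tRNA synthetases, 32.1% for nucleotide synthesis and 33.3% for the proteasome. These lists stood near the share of all genes. DNA replication had 39.1%, chaperones and import 42.9%, the mitochondrial ribosome 43.1%, oxidative phosphorylation 46.2% and histone genes 59.6%. Markers of other cell types lay at members in 0 of 31 cases, but only 2 of the 31 had a constant region at an end, so this says little about members.

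Promoter windows of 300 bases (250 before to 50 after a start) were read for both genes of each head-to-head member, and values are those of the plus-strand gene unless the minus-strand gene is named. The plus-strand gene's window had a median GC content of 63.3%, the single-start regions' 65.0%, all protein-coding genes' 62.3% and genes with no peak at an end 57.3%. The ratio of observed to expected CpG was over 0.6 in 86.8% of head-to-head windows, 83.4% of single-start windows, 62.7% of all protein-coding windows and 37.5% of windows of genes with no peak. In base composition head-to-head members thus stood close to other constant starts, and both stood apart from genes with no peak at an end.

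Short motifs were matched as exact letters on both strands of these windows, with matches of different motifs allowed to overlap. The ETS core CCGGAAG occurred in 27.6% of head-to-head windows (28.9% for the minus-strand gene), 20.3% of single-start windows and 5.45% of windows of genes with no peak, and in 13.8% of all protein-coding windows and 10.1% of the whole promoter table. Shares of NRF1 (GCATGCGC) were 7.20% at head-to-head members, 5.69% at single starts and 3.95% of all protein-coding windows, and of YY1 (AAGATGGCG) 5.90%, 4.37% and 2.66%. CCAAT, bound by NFY, gave 42.3%, 39.1% and 35.8%, and ZBTB33 (TCTCGCGA) 3.54%, 2.91% and 1.64%. The GC box GGGCGG gave 66.6%, 68.7% and 56.7%, with the higher share at single starts. TATAAA, the TATA box, ran the other way, with 4.60%, 6.03% and 10.2%, and 16.1% of genes with no peak. RUNX (TGTGGTT) and AP-1 (TGACTCA) are motifs of lymphoid and inducible elements. RUNX gave 3.07% at head-to-head members, 3.37% at single starts and 3.76% of all protein-coding windows. AP-1 gave 2.60%, 2.77% and 3.96% in the same order, so for both motifs head-to-head members stood close to single starts. For 3 motifs the plus-strand and minus-strand genes fell on opposite sides of the single starts. These were E-box (CACGTG), with 11%, 8.38% and 10.3% in that order, CRE (TGACGTCA), with 2.95%, 3.78% and 3.49%, and ZNF143 (CTACAATT), with 1.30%, 0.94% and 0.96%. For the other 9 motifs both genes of a head-to-head member fell on the same side of the single starts. The windows of the paired genes overlap where the starts are close (median distance 132 bp). Much of this agreement therefore comes from shared bases and is no second observation. A match is a stretch of letters and not a bound site, and these shares were not tested.

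**Figure D4:**
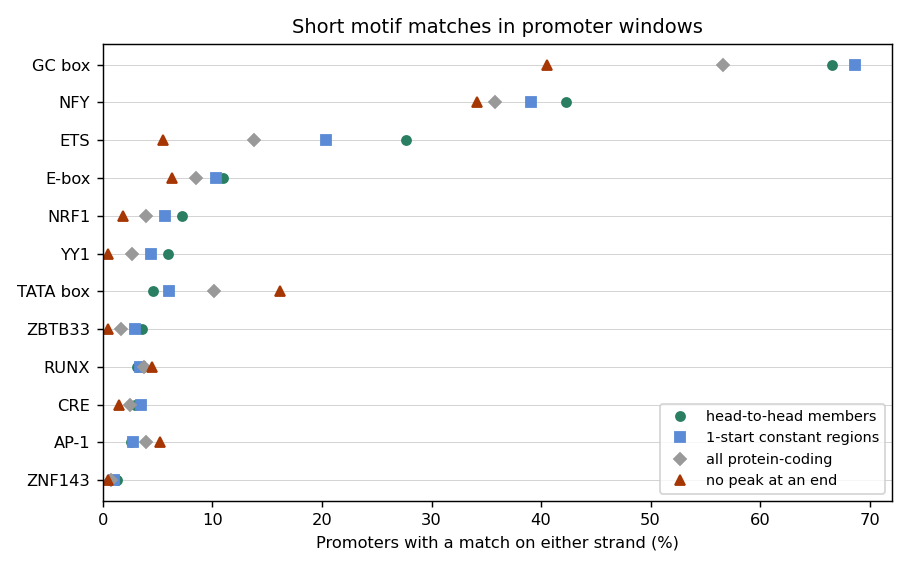
Share (%) of 300-base promoter windows with a match to each motif on either strand, for the plus-strand genes of head-to-head members, constant regions at 1 start, all protein-coding genes and genes with no peak at an end. The ETS core runs from 5.45% (no peak) to 27.6% (head-to-head), and the TATA box from 16.1% to 4.60%.

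Ranks were also read by motif in the plus-strand gene's window. Head-to-head members with CCAAT (n = 358) had a median mean rank of 80.8, against 75.3 without it (n = 489). Those with the ETS core (n = 234) had 78.5 against 76.5, and those with YY1 (n = 50) 83.0 against 76.7. The 11 members with ZNF143 had 94.5 against 76.6, and the 22 with AP-1 62.1 against 77.2. These medians were picked from 12 motifs, rest on small groups for the last pair, and are given without a test.

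The study's own contrast, simulated microgravity against normal gravity, was read for members from a limma fit over all 23984 constant regions. At an adjusted p under 0.05 it called 0% of all regions and 0 of 1436 members, and the smallest adjusted p was 0.60. At an unadjusted p under 0.05 it had 1542 regions (6.43%), of which 70 were members (4.87% of members). In simulated ranks of the same size the fit recovered 0 of 100 regions moved by 20 percentile points. It recovered 30 of 100 moved by 40. Shifts of 20 points were not recovered in that setting, so shifts of that size could go uncalled with 3 libraries against 3. All 3 SMG ranks lay above all 3 NG ranks at 50 members (3.48%), where the same held for 5.35% of all constant regions and 4.67% of regions with 1 gene. All 3 SMG ranks lay below at 111 members (7.73%), against 5.70% of all constant regions and 8.08% of regions with 1 gene. The share of members below was thus near that of the other gene-end regions. By gene list, 2 of the 35 member regions of DNA repair lay above and 4 below, and of the 19 of DNA replication 0 lay above and 4 below. Histone genes had 1 above and 0 below of 14, the mitochondrial ribosome 1 above and 2 below of 28, and oxidative phosphorylation 0 above and 2 below of 31. The cytosolic ribosome had 0 above and 3 below of 21, chaperones and import 2 above and 0 below of 18, tRNA synthetases 0 above and 1 below of 11, and the proteasome 1 above and 1 below of 12. Textbook pairs had 0 above and 1 below of 13, and nucleotide synthesis (9 regions) and the T-cell list (3 regions) had none in either direction. Counts this small are a description of the lists.

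The median rank of members was 74.5 ± 1.34 (SD, n = 3) in NG and 72.8 ± 1.68 (SD, n = 3) in SMG libraries, a difference of -1.74 points with overlapping libraries (exact permutation test, two-sided, p = 0.2, adjusted p = 0.24 over the 6 planned tests, smallest possible p 0.1). The difference was -0.93 points without SMG 1, -2.71 without SMG 3 and -3.07 with ranks by fold. Without 1 of the other 4 libraries it lay between -2.23 and -1.40. The median of regions with 1 gene was 66.4 in NG and 64.7 in SMG libraries. Median peak width was 837 ± 77.6 bp in NG and 877 ± 21.5 bp in SMG (SD, n = 3 each, exact permutation p = 0.7). Its difference of 40 bp rested on NG 1, the library of lowest depth, where the median width was 752.5 bp, and without NG 1 it was -3.5 bp. The summit of head-to-head members lay 97.2 ± 2.57 bp from the midpoint in NG and 102 ± 4.16 bp in SMG (SD, n = 3 each, exact permutation p = 0.2). None of these 3 group differences exceeded the spread between libraries by this test, which with 3 libraries against 3 could not have passed 0.05.

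**Figure D5:**
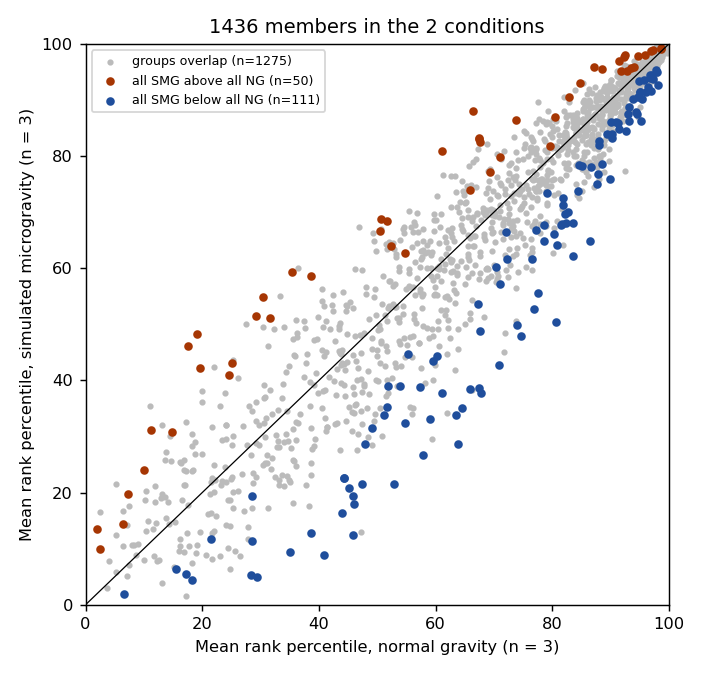
Mean rank percentile of each of the 1436 members in normal gravity (x, n = 3) and simulated microgravity (y, n = 3), with colour for members whose 3 SMG ranks all lie above (50) or below (111) all 3 NG ranks. The diagonal marks equal ranks, and no member was called by the fit.

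The members with the largest group differences among those without overlap are given as values, all with adjusted p of at least 0.60 in limma. At BBS1/DPP3, with a ciliary trafficking gene and a peptidase gene, ranks were 6.9, 28.8 and 21.9 in NG and 58.5, 57.3 and 29.2 in SMG libraries, a difference of +29.2 points. At LIPA/IFIT5, with lysosomal acid lipase and an interferon-induced gene, they were 10.1, 26.3 and 16.3 in NG and 42.2, 43.8 and 52.6 in SMG libraries (+28.6). At BBS1/DPP3 the lowest SMG value stood barely above the highest NG value, while at LIPA/IFIT5 the groups lay farther apart. HMGA1/LOC124901225, at an architectural chromatin protein, PRH1/PRH1-TAS2R14/SMIM10L1 and TMEM106A/NBR1 (NBR1 is an autophagy receptor) differed by +24.4, +23.8 and +22.7. In the other direction FBXO31/MAP1LC3B, with a gene of autophagosome formation, ranked 45.6, 64.3 and 81.9 in NG and 45.5, 37.1 and 3.5 in SMG libraries, a difference of -35.2 with groups that barely separated. CTSA/NEURL2/SPATA25, at the lysosomal protease cathepsin A, ranked 46.8, 42.2 and 48.5 in NG and 15.6, 11.1 and 10.4 in SMG libraries, a difference of -33.4 with tight libraries in each group. PI4KA/SNAP29, CC2D1A/BRME1, MRPS7/GGA3 and DYRK1B/FBL (FBL is the nucleolar protein fibrillarin) differed by -32.0, -31.4, -31.2 and -30.2.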

How the data were processed

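ATAC-seq peaks of 6 Jurkat libraries were analysed from lists that the authors deposited, 1 per library, with no header. The submitters' processing notes list MACS2, SAMtools, Bowtie, BWA and FastQC, with hg38 as the build. Settings, versions, duplicate handling and read shifting were not given in the sources used here. Each score in the deposited lists is 10 times the −log10 q-value, cut to a whole number. The deposited fold is a linear ratio of summit height to local background, and the −log10 q-value and −log10 p-value are as deposited by the authors, whose peaks were called per library. Peak positions and summit offsets (other) are as the authors gave them. The summit pileup was recovered from fold and −log10 p-value, within 0.001 for at least 99.9% of peaks, and counting depth is otherwise unknown.

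Regions, members and ranks were formed as described in the results. Gene ends came from the RefSeq gene table of GRCh38.p14 (20033 protein-coding genes on 24 chromosomes). Strand came from the RefSeq promoter table and covered 15841 of them, with no genome sequence used. The outer 5′ end of the gene equalled the start in the promoter table for 13281 genes. Ranks were compared with limma 3.58.1 in R 4.3.3 (Benjamini-Hochberg over all constant regions, adjusted p under 0.05), and single values with exact permutation and sign-flip tests (scipy 1.17.1, pandas 2.3.3, numpy 2.4.6, Python 3.11.15). The fit was tested on simulated data, with 1 false call. Spread over libraries is given as SD.

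The members, the gene lists, the motifs and the tests were chosen with earlier results of these data known. Named members were the 6 strongest of each arrangement, the 4 weakest, the 6 per direction with the largest non-overlapping group difference, up to 6 per gene list, and those next to a limit. Some items that this rule names are not reported here. COL4A3/COL4A4, the pairs without a member, TK1/AFMID, SIRT3/PSMD13 and the second MCM4/PRKDC region come from the list of textbook pairs and were named after their values were seen. Alternatives were other windows, widths, peak thresholds, overlaps, rank measures, gene sets, left-out libraries and a replicate block.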

Additional observations from a re-analysis of the deposited data

How the results depend on the processing

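The share of members at head-to-head starts moved from 59.0% to 66.2% with a window of 500 bp, 50.1% with 2 kb, 47.4% for regions under 1000 bp wide (521 members) and 62.2% where each library's peaks had to cover 50% of the region. Leaving out 1 library at a time, the 5 sign-flip comparisons kept their direction but could not pass, since 5 libraries allow no p under 0.0625. Their differences were 7.81 to 8.44 points (members against 1 gene), 80.1 to 87.8 bp (width), 11.4 to 12.3 points (head-to-head against other members), and 10.0 to 10.4 points and 109.5 to 117.3 bp (head-to-head against 1 start). The width difference between groups ran from -3.5 to 74.8 bp and reversed without NG 1. The rank difference between groups ran from -2.71 to -0.93 points and the summit distance from 3.75 to 6.54 bp. In the replicate block the group differences were -1.74 points, 40 bp and 5 bp (exact p 0.25, 0.5 and 0.25, smallest possible 0.25), and limma called 0 regions (1428 at an unadjusted p under 0.05, of which 61 members). Deviations of NG and SMG libraries correlated between -0.024 and 0.030, so the numbers do not pair them. limma called 0 regions and 0 members in all 11 alternatives run for it. Ranking by fold gave differences of 5.76, 14.1 and 8.09 points for the 3 rank comparisons and -3.07 points between groups (exact permutation p = 0.1).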

Other observations

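Members were spread unevenly over chromosomes, from 4.48 per 100 protein-coding genes on chromosome X to 9.42 on chromosome 14. Of the 1436 members, 60 carried a gene with a LOC name and 49 a readthrough gene, and without such genes 1353 members remained, with 61.2% head to head. The rank of a typical member varied between libraries, with a median range of 20.5 percentile points over the 6 libraries. The median range was 22.7 points at regions with 1 start, 23.4 at all regions with 1 gene and 27.2 over all constant regions.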
